A study of Saccharomyces cerevisiae BY4741 with 5 samples.

Results

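Ssd1 is a yeast RNA-binding protein related to the RNase II family of nucleases. The measurements set the transcripts recovered with tagged Ssd1 at 30°C beside those recovered from an untagged strain carried through the same purification. The members are the 2256 of 5090 transcripts in the count table whose counts averaged 10 or more in the 2 Ssd1-HTP libraries at 30°C. CRAC is a protocol in which RNA is cross-linked to protein by UV light in living cells, the protein is purified under denaturing conditions through its tag, and the attached RNA fragments are sequenced. The tag, HTP, holds a histidine run, a TEV protease site and Protein A, and was fused to the C-terminus of Ssd1 at its own locus in BY4741, a haploid laboratory strain of Saccharomyces cerevisiae. The construct also carried a Kluyveromyces lactis SSD1 3′UTR and a URA3 selection cassette, which the control did not receive. Clones 3 and 4 were independent transformants grown at 30°C in synthetic medium without tryptophan, and the control was 1 culture of untagged BY4741 in the same medium and temperature. Both clones were also sampled after 16 min at 42°C, and those libraries enter here only as a source of the spread between libraries.

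Ssd1 has no detected nuclease activity and is known for binding messenger RNAs of cell wall proteins and holding back their translation. The kinase Cbk1 phosphorylates it, and both proteins are found at the bud and at the bud neck. The yeast wall is built of glucan and chitin onto which mannoproteins are fixed through GPI remnants or, for the PIR proteins, through alkali-labile links, and septum hydrolases free the daughter cell after division. An untagged library shows what sticks to the beads and carries through the purification without the tag, usually abundant messenger RNAs.

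The libraries held 176962 counts for clone 3, 111824 for clone 4 and 3921 for the control. Counts were found on 4026, 3458 and 560 transcripts, in that order. A control count of 0 allows up to 3 counts, or 765 CPM (a count scaled to a common library size), and 1824 of the 2256 members (80.9%) had 0 counts in the control. For 1763 of these the level at 30°C was at or under that limit, so a difference from the control was not detectable at this depth. Log2 CPM of the clones correlated at r = 0.35 over the members and at r = 0.86 over the 404 with a mean count of 50 or more. Both correlations run across transcripts within libraries, and transcripts are not independent replicates.

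Outside the 8 cell wall genes that the study names, 12 transcripts took a larger share of the Ssd1-HTP libraries than of the control and 55 took a smaller share. The test was the quasi-likelihood F test of edgeR, adjusted by Benjamini-Hochberg at a threshold of 0.05, in which total counts set the library sizes. With the 8 genes, 20 transcripts were called higher, which is 0.887% of the 2256 tested, and the 55 called lower are 2.44%. The 12 transcripts made up 6.57% of counts in clone 3 and 6.28% in clone 4, against 0.102% in the control (4 counts, exact 95% interval 0.0278 to 0.261%). The 55 transcripts made up 2.70% and 2.75% of the clones' counts and 24.8% of the control's (973 counts, 23.5 to 26.2%). These sums are over transcripts chosen by the same test and are descriptions. Because the control is a single library, its own spread is not measured, and the test takes it to vary as the Ssd1-HTP libraries do. With the clone as a replicate block the same test called 27 higher and 109 lower.

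**Figure D1:**
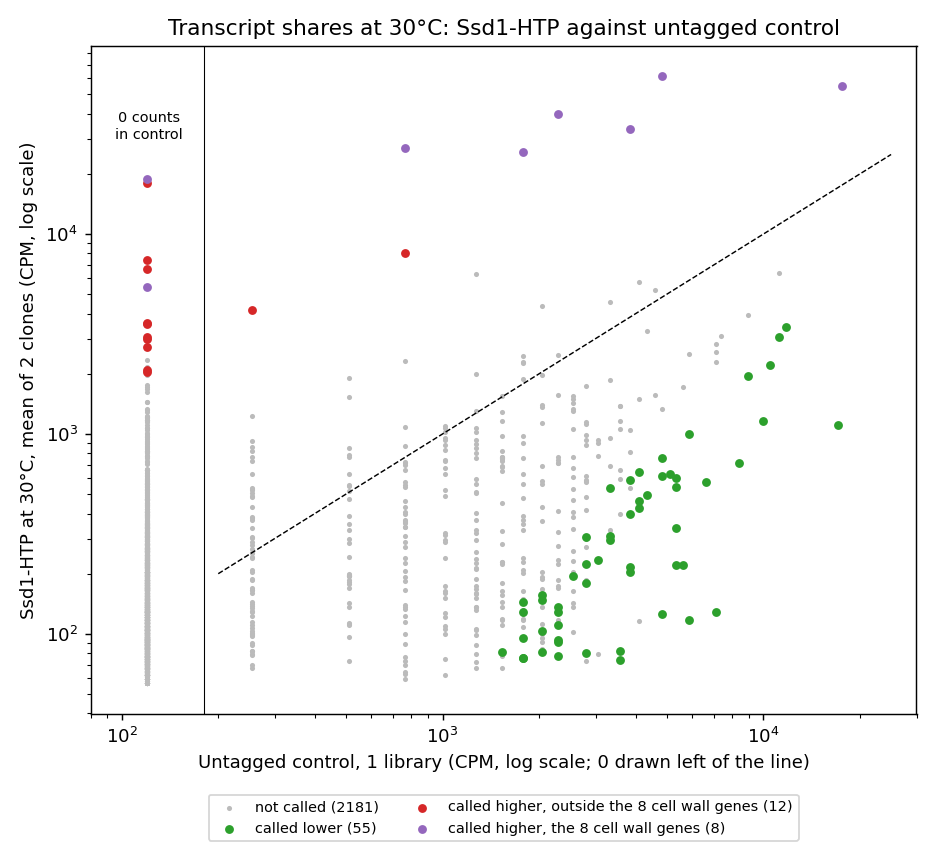
Each point is 1 of the 2256 transcripts, with its level in the single untagged control library (x axis, CPM, log scale) against the mean level of 2 Ssd1-HTP clones at 30°C (y axis, CPM, log scale). The dashed line marks equal shares, transcripts at 0 in the control stand left of the vertical line, and colours mark the 20 transcripts called higher and the 55 called lower.

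Calls of lower shares rested on how the libraries were scaled. With TMM scaling, which uses only transcripts counted in both libraries and gave the control a factor of 4.32, 77 transcripts were called higher and 1 lower. Leaving the 8 cell wall genes out of the totals gave 19 and 15 calls. The 8 genes took 25.4% and 28.0% of the clones' counts and 3.11% of the control's, so the other transcripts divided a smaller part of the counts in the clones than in the control. The 12 transcripts outside the 8 genes were also called higher with TMM, while HSP10 was the 1 transcript called lower there. TMM moved log2 fold changes of members with control counts upward by a median of 2.34, so it could hardly remove higher calls. Keeping the 12 there is therefore a weak check of them.

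For a transcript at 0 in the control, "at least" sets the clones' mean against the limit of 3 counts. The end of the two-sided exact interval, 0.0940% of counts, is a wider limit and lowers these folds, for HSP150 to 19.1 and for CCW14 to 2.16. Without clone 4, CIS3, MSB2 and CCW14 were no longer called higher (adjusted p = 0.0586, 0.0726 and 0.0655 by edgeR), and 23 of the 55 lower calls remained, with CDC19, PCL5, TDH2 and CIT2 among those lost.

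Among the 12 were 4 mannoproteins of the wall outside the 8 genes. HSP150 (YJL159W, chromosome X, 120395 to 122004), a PIR protein, stood at 18060 CPM in clone 3 and 17894 CPM in clone 4 and had 0 counts in the control. The clones differed by less than their counting error, and the mean was at least 23.5-fold above the control's limit (adjusted p = 6.2e-04 by edgeR). CWP2 (YKL096W-A), a GPI mannoprotein, had 8205 and 7798 CPM against 765 CPM (3 counts) in the control. Its ratio was 10.5, with a counting interval of 3.58 to 50.7. CIS3 (YJL158C), a PIR protein like HSP150, had 4521 and 3783 CPM against 255 CPM, a single count. The ratio of 16.3 had a counting interval of 2.92 to 643, so its size is hardly fixed. CCW14 (YLR390W-A), a GPI protein of the inner wall, had 1944 and 2119 CPM and 0 counts in the control, at least 2.66-fold. Per kb of transcript, CWP2 (15971 CPM per kb) and HSP150 (11166) stood sixth and eighth of the whole table in mean level at 30°C.

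The list of PIR and GPI mannoproteins, which leaves out the 8 genes, held 23 measured members. Of the 16 tested, 4 were called higher and none lower. SED1, the abundant GPI protein of stationary cells, had 16 control counts and a ratio of 1.42 (adjusted p = 0.637 by edgeR). CWP1, another GPI mannoprotein, stood at a mean of 613 CPM against 2805 CPM in the control, a ratio of 0.219, with adjusted p = 0.156. In ratio, GPI members of the list lay on both sides of the control, with CWP2 above it and CWP1, which was not called, below. Summed, the list took 4.19% and 4.20% of the clones' counts and 0.816% of the control's (32 counts, 0.559 to 1.15%).

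Daughter cell and polarity genes supplied 3 of the 12. AMN1 (YBR158W, chromosome II, 556302 to 558353), a daughter-specific inhibitor of mitotic exit, had 6928 and 6430 CPM and 0 counts in the control, at least 8.73-fold (adjusted p = 0.0175 by edgeR). BUD9 (YGR041W), which marks the birth pole for budding, had 4300 and 2880 CPM and 0 counts, at least 4.69-fold. The intervals of the clones did not overlap for BUD9, although both lay above the control's. MSB2 (YGR014W), a mucin-like sensor of the filamentous growth and osmosensing pathways, had 2746 and 3193 CPM and 0 counts, at least 3.88-fold. MSB2 was the single call among 18 tested genes of bud site and polarity, of which 1 had an unadjusted p under 0.05 on the higher side and 2 on the lower. GIC1, an effector of the GTPase Cdc42, had a ratio of 0.0737 (adjusted p = 0.284 by edgeR), and the kinase STE20 a ratio of 0.0782 (adjusted p = 0.372). The summed share of that list, 0.583% and 0.612% against 0.332% (0.177 to 0.566%), did not clear the control once the clones' own intervals are counted. On the septum list, with 13 measured genes and 11 tested, AMN1 and BUD9 were called and none was called lower. EGT2, a GPI protein of the septum, stood at 688 CPM against 3315 CPM in the control (13 counts), with adjusted p = 0.228. The list took 1.51% and 1.38% of the clones' counts against 0.485%, and the ratio rose from 2.98 to 8.98 without EGT2.

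Metabolic and redox genes were among the remaining 5. FBA1 (YKL060C), fructose-bisphosphate aldolase of glycolysis, had 3504 and 3577 CPM and 0 counts in the control, at least 4.63-fold (adjusted p = 0.0207 by edgeR). TSA1 (YML028W), the main cytosolic peroxiredoxin, had 2978 and 3139 CPM and 0 counts, at least 4.00-fold. FAS1 (YKL182W), the beta subunit of fatty acid synthase, had 3261 and 2155 CPM and 0 counts, at least 3.54-fold. FAS1 spans 6306 bases, so that its level per kb, 429 CPM, was the lowest of the 12. TSA1 was the 1 higher call of 12 tested on the list of stress and redox genes, which as a whole lay below the control at 1.02% and 0.916% against 1.53% (60 counts). TRX1, a cytosolic thioredoxin, was called lower there, with 322 and 286 CPM against 2805 CPM (11 counts, adjusted p = 0.0448). SOD1, the copper and zinc superoxide dismutase, held 29 of the control counts at a ratio of 0.416 with adjusted p = 0.206. SPO24 (YPR036W-A), a small protein with a role in sporulation, had 1769 and 2388 CPM and 0 counts, at least 2.72-fold.

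YKR041W, an open reading frame with no function assigned here, had 7454 and 7396 CPM and 0 counts in the control (at least 9.70-fold, adjusted p = 0.0175 by edgeR). Its interval overlaps that of UTH1, one of the 8 genes, by 45 bases on the same strand. YKR041W counts were 19.0% of UTH1 counts in clone 3 and 18.5% in clone 4. The part that shared reads have in the YKR041W counts was not tested. TSA1 overlaps USA1 by 96 bases on the same strand, and SPO24 overlaps ERV2 by 51 bases on the opposite strand.

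**Figure D2:**
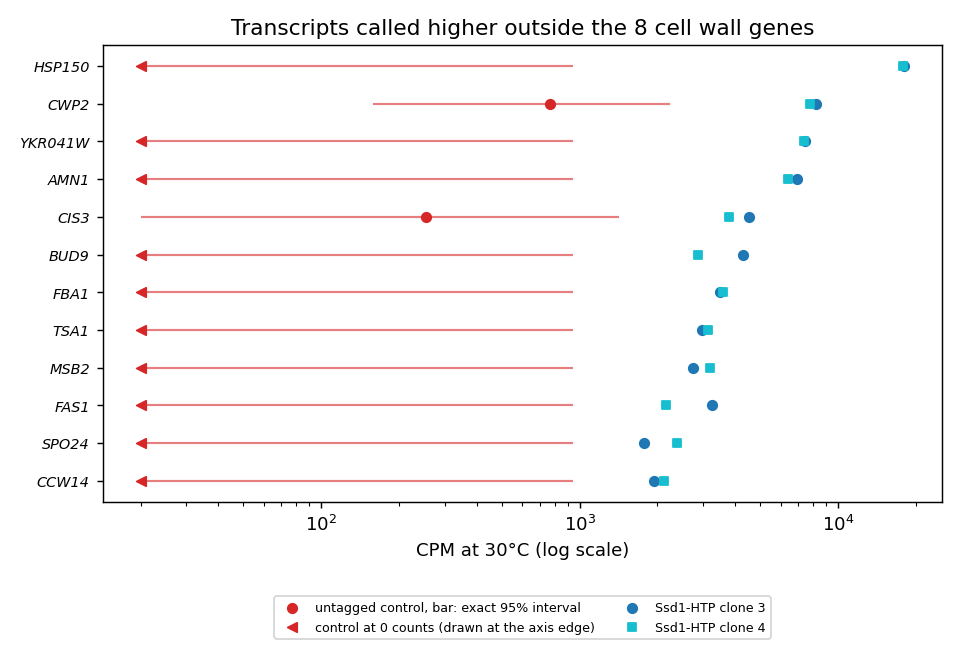
Levels at 30°C (x axis, CPM, log scale) of the 12 transcripts called higher outside the 8 cell wall genes, with clones 3 and 4 as separate points and the control with its exact 95% interval. Both clones lie right of the control's interval in all 12, and 10 of the 12 had 0 counts in the control, drawn at the axis edge.

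A second rule, without a test, took the transcripts whose exact 95% intervals in both clones lay above that of the control. It gave 34 transcripts, 1.51% of those tested, with all 20 called by edgeR among them, while 202 (8.95%) lay below by the same rule. The intervals cover counting error only. Of the 14 others, 3 belonged to wall remodelling: TOS1, BGL2 and EXG1. TOS1, a protein bound covalently to the wall, stood at 5611 and 7065 CPM against 1275 CPM (5 counts), with adjusted p = 0.0704 by edgeR. Elongation factors were 3 more, with YEF3, the fungal elongation factor 3, at 2413 and 2271 CPM and 0 counts. TEF4 and EFB1, subunits of the exchange factor eEF1B, stood at 2718 and 1628 CPM and at 2317 and 1637 CPM, both with 0 counts. TOS1 and YEF3 come from the rule for named genes, and the other 4 were named after their values were seen.

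Across the 40 functional lists, the summed share lay above the control in both clones for 15 and below it for 21, with 4 on both sides. The exact intervals of both clones lay above that of the control for 7 lists and below for 16. Beside the mannoproteins and the septum, the lists above were glucan and chitin remodelling, glucan and chitin synthesis, ergosterol synthesis, fatty acid synthesis, and trehalose and glycogen. These sums are descriptions and were not tested. The totals include the 8 cell wall genes, which took a larger part of the clones' counts than of the control's. With these genes left out of the totals, the list ratios rose. Amino acid biosynthesis moved from 0.694 to 0.918, fermentation and glycerol from 0.657 to 0.869, and stress and redox from 0.632 to 0.834. Glycolysis moved from 0.560 to 0.741, histones from 0.239 to 0.316 and the TCA cycle list from 0.154 to 0.203.

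Glucan and chitin remodelling enzymes, 23 genes with 18 tested, took 1.73% and 1.95% against 0.561% (22 control counts). None was called by edgeR, although 6 had an unadjusted p under 0.05 on the higher side, and DESeq2 with total counts called 2. ECM33, a GPI protein needed for an intact wall, stood at 2305 CPM against 765 CPM, a ratio of 3.01, with adjusted p = 0.637, and SCW10 held 11 of the 22 control counts at a ratio of 0.620. Synthesis of glucan and chitin, 16 genes that make the polymers themselves, had 0 control counts against 0.253% and 0.207%. FKS1, a catalytic subunit of glucan synthase, led it at 912 CPM with adjusted p = 0.337. Ergosterol synthesis had 2 control counts, both on ERG11, against 0.281% and 0.364%. ERG11 itself, the lanosterol demethylase, had a ratio of 1.07. Trehalose and glycogen genes had 0 control counts against 0.258% and 0.209%, with TSL1 and TPS2 of the trehalose synthase complex at 414 and 383 CPM, under the limit that a control count of 0 allows.

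Fatty acid synthesis took 0.738% and 0.553% against 0.230%, with 13 of 13 genes tested and FAS1 alone called. FAS2, the alpha subunit, stood at 875 CPM and 0 control counts with adjusted p = 0.386 by edgeR. CLN2, a G1 cyclin, stood at 1335 CPM with 0 counts in the control and adjusted p = 0.176. The list of G1, S and Pho85 cyclins, which holds CLN2, took 0.196% and 0.289% against 0.0510%, from 2 control counts on CLN3. It leaves out PCL5, a Pho85 cyclin described below, which alone took 0.275% and 0.34% against 1.12% (44 control counts). The list's share is therefore not that of all such cyclins.

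**Figure D3:**
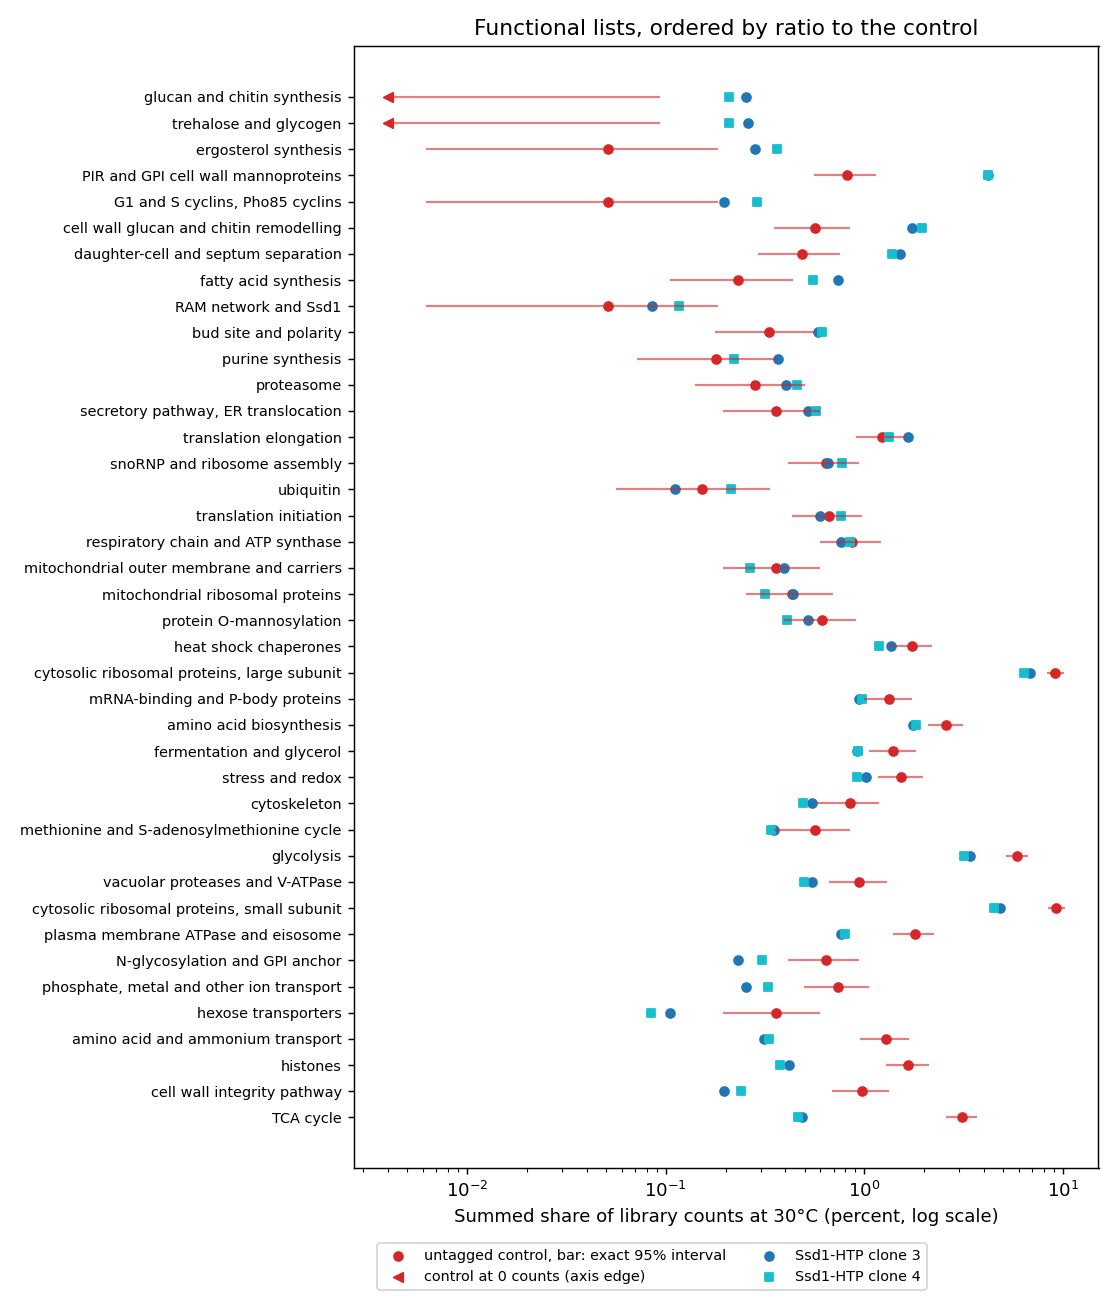
Summed share of library counts (x axis, percent, log scale) of 40 functional lists in clone 3, clone 4 and the control, whose bar is the exact 95% interval. Lists are ordered by their ratio to the control, from those with no control counts to the TCA cycle list, which includes MDH2 and CIT2, at 0.154.

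Central carbon metabolism led the transcripts with a lower share. MDH2 (YOL126C, chromosome XV, 81548 to 82996), cytosolic malate dehydrogenase, held 67 of the 3921 control counts, or 17087 CPM, and stood at 1232 and 984 CPM in the clones. The control was 15.4-fold higher (log2 fold change -3.94, SE 0.43, adjusted p = 8.8e-04 by edgeR). The list named TCA cycle took 0.485% and 0.464% against 3.09%, with MDH2, CIT2 and LSC1 called lower of 16 tested. It includes isozymes located outside the mitochondrion. Of its 121 control counts, cytosolic MDH2 held 67 and peroxisomal CIT2 held 17, so its share is not that of the mitochondrial cycle alone. CIT2, peroxisomal citrate synthase, stood at 576 and 420 CPM against 4336 CPM. LSC1, a subunit of succinyl-CoA ligase, stood at 56.5 and 125 CPM against 2295 CPM and was named after its values were seen. Without MDH2 the list ratio moved from 0.154 to 0.264.

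Glycolysis was divided. CDC19 (YAL038W), pyruvate kinase, had 3142 and 3738 CPM against 11732 CPM (46 counts), and GPM1, phosphoglycerate mutase, had 2006 and 2415 CPM against 10457 CPM (41 counts). TDH2, a glyceraldehyde-3-phosphate dehydrogenase, had 1904 and 2012 CPM against 8926 CPM (35 counts). All 3 were called lower by edgeR, at adjusted p of 0.0433, 0.0219 and 0.0219, and all 3 turned to a ratio above the control with TMM scaling. FBA1 of the same pathway was called higher, as above. ENO2, an enolase, did not pass the test at a ratio of 1.14 (adjusted p = 0.733), and neither did TDH3 at 0.569 (adjusted p = 0.337). Summed, the 17 genes took 3.39% and 3.18% against 5.87% (230 control counts). TDH2 and TDH3 are near-identical copies whose reads may have been split between them, and GPM1 overlaps NNR2 by 601 bases on the same strand.

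Ribosomal protein transcripts were a large part of the control. The 139 genes of the cytosolic ribosome held 722 of its counts, on 85 of them. The small subunit took 4.81% and 4.51% of the clones' counts against 9.26%, and the large subunit took 6.83% and 6.40% against 9.16%. Without the 8 cell wall genes in the totals, the ratio moved from 0.503 to 0.665 for the small subunit. For the large subunit it moved from 0.723 to 0.955, near the control. Of 138 tested, 7 were called lower, 4 of the small subunit and 3 of the large, with the control 6.40 to 11.7-fold higher. Over all members, 55 of 2256 were called lower (2.44%). Among transcripts with control counts, 7 of 85 ribosomal ones and 55 of all 432 members were called lower. At an unadjusted p under 0.05 by edgeR, 7 large-subunit and 6 small-subunit genes passed on the higher side. On the lower side, 12 passed in each subunit. ASC1 (YMR116C), a propeller protein of the small subunit, had 1255 and 1055 CPM against 9946 CPM (39 counts), and its interval holds the snoRNA gene SNR24. RPS13 had 915 and 519 CPM against 8416 CPM (33 counts). RPL41A, the transcript of the shortest ribosomal protein, stood at 2493 CPM against 2295 CPM, a ratio of 1.09, and RPL2B at 4355 CPM against 2040 CPM, a ratio of 2.13, both with adjusted p over the threshold (0.870 and 0.637). Most ribosomal protein genes are pairs of similar copies, between which reads may have been split.

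The largest ratios among the 55 were at HSP10, ISD11 and SSK22. HSP10 (YOR020C, chromosome XV, 370423 to 370882), the mitochondrial co-chaperonin, had 28 control counts (7141 CPM) and 141 and 116 CPM in the clones. The control was 55.5-fold higher (adjusted p = 6.2e-04 by edgeR). ISD11, of mitochondrial iron-sulfur cluster assembly, had 56.5 and 179 CPM against 5866 CPM, so that the clones themselves differed beyond counting error. SVF1, linked to survival under oxidative stress, had 198 and 53.7 CPM against 4846 CPM, again with the clones apart. TMA19, a conserved ribosome-associated protein, had 1328 and 680 CPM against 5866 CPM and overlaps OAR1 by 73 bases on the same strand. For 46 of the 55 the clones' intervals overlapped, and for 9 they did not.

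Histone transcripts took 0.419% and 0.374% of the clones' counts against 1.66% in the control (65 counts). HHF2, a copy of histone H4, had 689 and 465 CPM against 6631 CPM (26 counts, adjusted p = 0.0123 by edgeR), and HHT1, a copy of histone H3, had 367 and 250 CPM against 3315 CPM (13 counts). Of 10 histone genes tested, these were the 2 called. HTB1, for histone H2B, had a ratio of 0.207 with adjusted p = 0.119, and HHT2 a ratio of 0.324 with adjusted p = 0.234. The genes of a pair are near-identical in coding sequence.

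PCL5 and 2 genes of wall signalling were called lower. PCL5, a cyclin of the kinase Pho85 that directs turnover of Gcn4, had 2746 and 3398 CPM against 11222 CPM (44 counts, adjusted p = 0.0441 by edgeR). TUS1, an exchange factor for Rho1 in the cell wall integrity pathway, had 175 and 268 CPM against 5611 CPM (22 counts, adjusted p = 0.00747). MKK1, a kinase of the same pathway, had 158 and 98.4 CPM against 2295 CPM and was named after its values were seen. TUS1 and MKK1 were the 2 calls among 12 tested, beside 55 of 2256 called lower over all members (2.44%). The list of 19 pathway genes took 0.197% and 0.240% against 0.969%. Only 3 of them had control counts. TUS1 held 22 of the 38, and without TUS1 the list ratio moved from 0.225 to 0.48. WSC2, a wall sensor at the start of the pathway, stood at 472 CPM with 0 control counts, under the limit that such a count allows. CAF120, of the Ccr4-Not complex, had 198 and 241 CPM against 5356 CPM (21 counts). OST4, a subunit of the oligosaccharyltransferase, had 565 and 662 CPM against 4846 CPM. HOM2, an enzyme of threonine and methionine synthesis, had 215 and 465 CPM against 5356 CPM.

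Among the functional lists, one of membrane transport had the most lower calls, while cytosolic ribosomal proteins, listed by subunit, had 7 together. Of 27 measured genes on the list named amino acid and ammonium transport, 21 were tested and 5 were called lower. Over all members, 55 of 2256 were called lower (2.44%). The 5 were CAN1, GNP1, MUP3, AGP1 and TPO4, named after their values were seen. CAN1, the arginine permease, had 90.4 and 116 CPM against 2040 CPM (8 counts), and AGP1, a broad amino acid permease, had 73.5 and 89.4 CPM against 1530 CPM (6 counts). None of these 5 stayed called with the 3 libraries at 30°C alone, without clone 4, with totals without the 8 cell wall genes, with TMM or on counts divided by counts per molecule. BAP2, a permease for branched-chain amino acids, was not called at a ratio of 0.535. The list took 0.314% and 0.332% against 1.28% (50 counts). LSP1, of the eisosomes that shape the plasma membrane, had 271 and 161 CPM against 3826 CPM, and PMA1, the plasma membrane proton pump, had a ratio of 0.397 with adjusted p = 0.240 by edgeR.

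Transcription and chromatin genes were among the lower calls too. SIN3, the scaffold of a histone deacetylase complex, had 429 and 492 CPM against 4081 CPM (16 counts), a control level 8.86-fold higher. CYC8, a corepressor subunit, had 136 and 313 CPM against 2805 CPM (11 counts) and was named after its values were seen. SUB2, a helicase of splicing and mRNA export, had 740 and 546 CPM against 4081 CPM. HRP1, a factor of mRNA 3′-end formation, had 226 and 367 CPM against 3315 CPM, and it was the single call among 29 tested genes of mRNA-binding and P-body proteins. NAB2, a poly(A)-binding protein of the nucleus and the top control member of that list, had 1503 CPM against 4081 CPM, a ratio of 0.368, with adjusted p = 0.277 by edgeR. SRP40, a nucleolar serine-rich protein, had 56.5 and 107 CPM against 3571 CPM (14 counts).

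Signalling and trafficking genes followed. SSK22, a kinase of the osmosensing pathway, had 84.8 and 62.6 CPM against 3571 CPM (14 counts), 48.5-fold higher in the control. MCK1, a glycogen synthase kinase 3 homologue, had 554 and 626 CPM against 3826 CPM. SFT2, a Golgi membrane protein, had 175 and 233 CPM against 3826 CPM (15 counts, adjusted p = 0.0129 by edgeR). VMA1, the catalytic subunit of the vacuolar proton pump, had 588 and 483 CPM against 3315 CPM and was the only one called of 20 tested in its list, whereas VMA2 of the same pump stood at 657 CPM with 0 control counts and adjusted p = 0.307. VMA2 was under the limit that a control count of 0 allows.

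Several lists lay below the control with no member called. Hexose transporters took 0.105% and 0.0841% against 0.357% (14 counts), with HXT1 at a ratio of 0.125 and GAL2 at 1.19, neither called. Phosphate, metal and other ion transporters took 0.254% and 0.326% against 0.740%, and PMR1, a Golgi calcium pump, had a ratio of 0.149 with adjusted p = 0.0621 by edgeR. Fermentation and glycerol genes took 0.920% and 0.924% against 1.40%. PDC1, pyruvate decarboxylase, accounted for 35 of the 55 control counts at a ratio of 0.441, and without it the list ratio was 1.04. ADH1, alcohol dehydrogenase, stood at 2257 CPM against 1785 CPM, a ratio of 1.26. At an unadjusted p under 0.05, 0 hexose transporter genes, and 1 higher and 2 lower genes of fermentation, passed, and DESeq2 with total counts called 0 in both lists.

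Other lists did not stand apart from the control. Translation initiation took 0.601% and 0.762% against 0.663% (0.434 to 0.970%), and PAB1, the cytoplasmic poly(A)-binding protein, had 531 CPM and 0 control counts. Genes of snoRNP and ribosome assembly took 0.658% and 0.771% against 0.638%. Respiratory chain and ATP synthase genes took 0.765% and 0.848% against 0.867%, and mitochondrial ribosomal proteins 0.439% and 0.315% against 0.434%. The intervals of these control shares span the values of both clones, so a difference of that size was not detectable at this depth. Elongation genes took 1.65% and 1.33% against 1.22%, with TEF2 at 28 of 48 control counts and a ratio of 0.320, while TEF1, which encodes the same protein, had a ratio of 1.37. Reads of that pair may have been split between the copies.

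**Figure D4:**
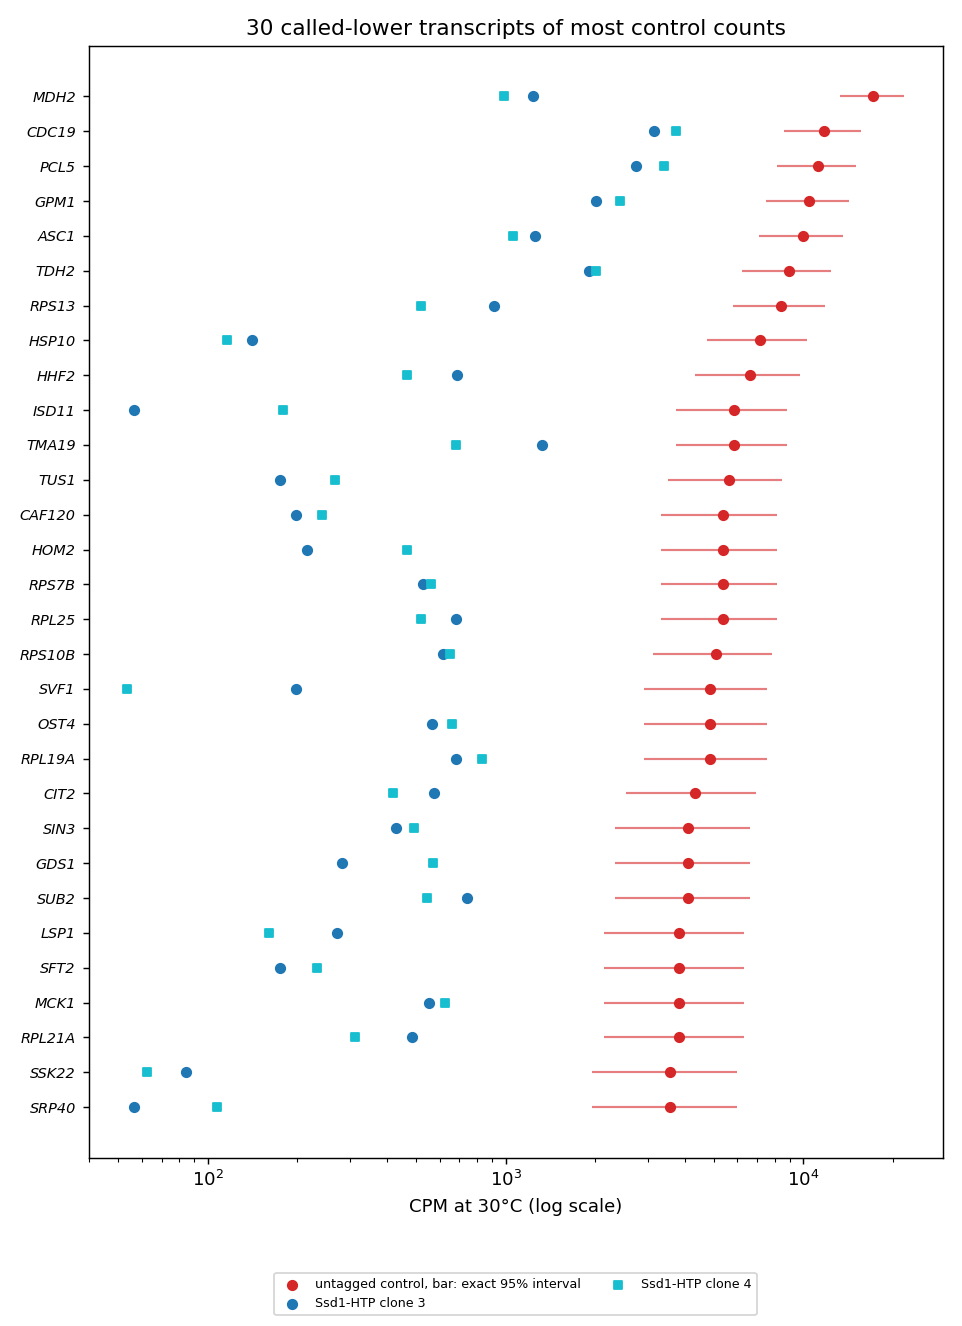
Levels at 30°C (x axis, CPM, log scale) of the 30 called-lower transcripts of most control counts, with clones 3 and 4 as separate points and the control with its exact 95% interval. In all 30 both clones lie left of the control's interval, from MDH2 at 17087 CPM in the control down to SRP40 at 3571 CPM.

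Control counts were low and unevenly spread even among these transcripts. Of the 560 transcripts with control counts, 89 had 1 count and 94 had over 10. The most was 69, on CCW12, one of the 8 cell wall genes. Of the 55 called lower, 16 had under 10 control counts, and the fewest was 6. If several counts came from 1 captured molecule, the intervals given here are too narrow. Dividing each library by an estimate of its counts per molecule, which was 3.70 in the control and 3.44 and 4.19 in the clones, left 7 transcripts called higher and 13 lower. Outside the 8 genes, HSP150 alone was then called higher. The estimate set the transcripts detected against those expected from the shares of the Ssd1-HTP libraries, for the control too. The control's own shares differed from these, so 3.70 and the calls on divided counts rest on an assumption that was not tested.

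The minimum on counts at 30°C also left out 128 transcripts with control counts, 559 in all. Because the minimum holds down the clones' counts, a lower share in the clones follows from this choice and is no result. Of the 128, 82 had both clones' intervals below the control's and 12 had 0 counts in both clones. The highest was DFG16, of alkaline pH sensing, with 23 control counts and 3 and 5 counts in the clones. It was named after its values were seen.

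Untranslated regions could be measured from the table's mapped ends and the RefSeq coding ends. The median 5′ untranslated region was 48 bases in the 11 of 12 higher transcripts with mapped ends, 44 in 49 of the lower and 52 in all 1937 tested with mapped ends. With the 8 genes, whose regions reach 711 bases, the median of 18 higher transcripts was 85. A 5′ region of 200 bases or more was present in 3 of the 11, in 4 of the 49 and in 198 of the 1937 (10.2%). Among the 12, AMN1, BUD9 and MSB2 had 247, 266 and 275 bases. These are descriptions with no test.

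Marker genes of the strains were checked in the same table. SSD1 itself had 95 and 81 counts in the clones and 2 in the control, a ratio of 1.24 (adjusted p = 0.809 by edgeR). LEU2 and MET17, deleted in BY4741, had 0 counts in all 3 libraries at 30°C. URA3 is deleted in BY4741 too, but the tagged clones carry a URA3 cassette, and the URA3 interval of the table nevertheless had 0 counts in both clones as well as in the control. Why no count fell there was not tested. HIS3, whose deletion in BY4741 is partial, had 9 and 5 counts in the clones and 0 in the control. LYS2, which the strain keeps, had 65 and 22 counts in the clones and 0 in the control.

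**Figure D5:**
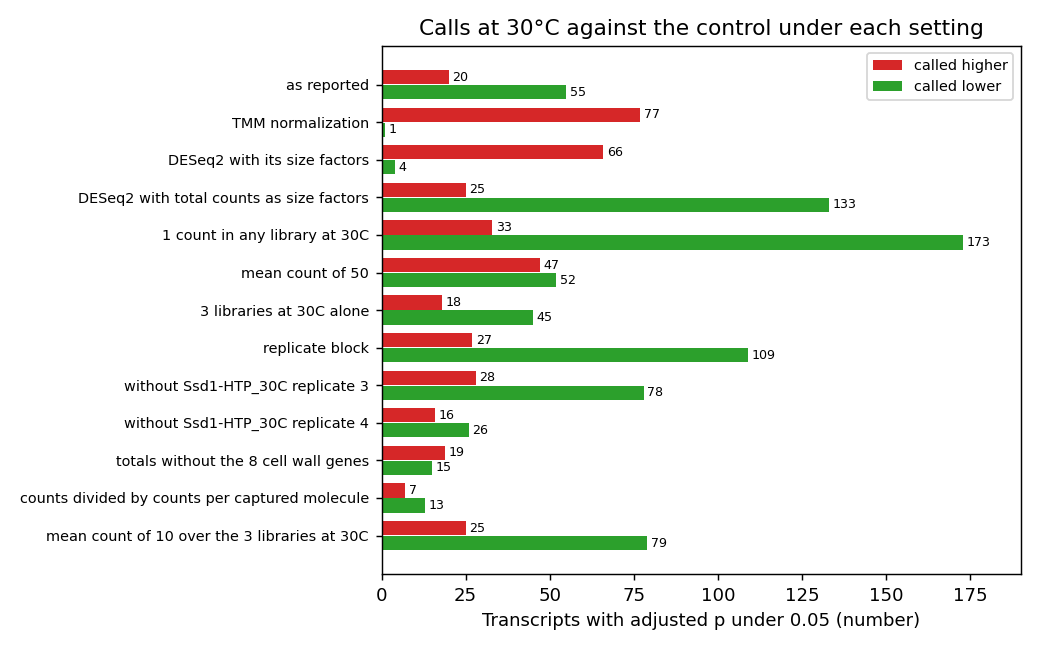
Number of transcripts called higher and lower at 30°C against the control (x axis, count at adjusted p under 0.05) under the reported setting and 12 alternatives. Calls of higher shares range from 7 to 77 and calls of lower shares from 1 to 173.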

How the data were processed

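CRAC libraries of 2 Ssd1-HTP clones at 30°C and 1 untagged BY4741 culture were compared. The deposited values are whole-number counts per transcript, without normalization. The authors trimmed adapters with flexbar, split barcodes, collapsed PCR duplicates by insert and random barcode, aligned with Novoalign and counted with multiBamCov of bedtools. The submitters' processing notes name the build sacCer3 and SAMtools. Of 5090 transcripts, 4212 had mapped ends and 878 default untranslated regions. The sources used here do not say whether counting used strand, and overlapping intervals may share reads. All 5090 locus names matched RefSeq assembly R64.

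Shares and CPM were computed from total counts, with exact Clopper-Pearson and Poisson 95% intervals that cover counting error only. Counts of all 5 libraries in 3 groups were fitted with edgeR 4.0.16 (R 4.3.3), with total counts as library sizes, for transcripts averaging 10 counts or more at 30°C. DESeq2 1.42.0 and the settings of the closing section were alternatives. Leaving out a clone removed its library at 30°C, while its library at 42°C stayed in the fit. Clones with 1 number at 30°C and 42°C are the same transformant, so numbers pair those samples by origin, but the clones' differences at both temperatures correlated at r = -0.02 over transcripts. The fit was tested on simulated counts, whose settings were revised several times after their results were seen; fold sizes were recovered, but most of the changes put into them were not called, so that a missing call is no sign of equal shares. The rule for named genes took the called transcripts (up to 30 a direction), the 10 of most counts at 30°C and in the control, up to 4 members a list and strain markers. The members and lists were chosen with earlier results of these data known. A motif count was planned and not run, because no sequences were used here.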

Additional observations from a re-analysis of the deposited data

How the results depend on the processing

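Called higher and lower transcripts numbered 20 and 55. They were 77 and 1 with TMM, 66 and 4 with DESeq2 and its size factors, 25 and 133 with DESeq2 and total counts, 33 and 173 with 1 count in any library at 30°C as the minimum (4453 tested), 47 and 52 with a mean count of 50 (404 tested), 18 and 45 with the 3 libraries at 30°C alone, 19 and 15 with totals without the 8 cell wall genes, and 7 and 13 on counts divided by counts per molecule. With a mean of 10 over the 3 libraries, an alternative chosen after seeing the data, they were 25 and 79. Leaving out 1 clone gave 16 to 28 higher and 26 to 78 lower, the fewest without clone 4. The replicate block gave 27 and 109, which included the same 20 and 55 transcripts. The share of higher among all calls moved from 26.7% to 98.7% with TMM, 94.3% with DESeq2 factors, 55.9% without the 8 genes and 15.8% with DESeq2 on totals. TMM shifted the median log2 fold change of members with control counts by 2.34, DESeq2 factors by 1.93 and totals without the 8 genes by 0.40. Direction reversed for CDC19 (0.57 with TMM, 0.17 with DESeq2 factors), PCL5 (0.47 and 0.07), TDH2 (0.15 with TMM) and GPM1 (0.10 with TMM). The cause was not tested beyond the construction of each setting.

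Lists above the control in both clones went from 15 to 23, and those below from 21 to 16, when each list lost its member of most control counts. Interval calls fell from 34 and 202 to 12 and 51 on divided counts and were 43 and 167 without the 8 genes in the totals. Both were chosen after seeing the data, and the division for the control rests on the shares of the Ssd1-HTP libraries. The control's 3921 counts limit every ratio.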
